A study of Mus musculus with 6 samples.

Results

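Otx2, Zic2, Zic5, Foxd3 and Pou3f1 encode transcription factors of the epiblast on its way from the naive to the primed state, and they were followed here in differentiating mouse embryonic stem (ES) cells. Every probe set that the array's annotation names for these genes was taken, which gave 8 probe sets for all 5 genes, out of 45101 probe sets and 18193 named genes. Zic5 had 3 probe sets, Pou3f1 had 2, and Otx2, Zic2 and Foxd3 had 1 each. The cells were E14 ES cells of the 129P2/OlaHsd background that carry an Msgn1-Venus reporter (Msgn1RepV), 1 line throughout. Both groups were differentiated as a monolayer in serum-containing medium with 0.5% DMSO, 10 ng/mL of R-spondin3, which potentiates Wnt signalling, and 200 ng/mL of Noggin, which binds and blocks BMP ligands. Venus-positive cells were sorted, with 3 arrays from day 3 and 3 from day 4, and the labels of the groups differ in time alone. RNA was isolated with Trizol or with a Qiagen kit, and which of these each sample had is not given in the sources used here, so its part in the results was not tested. No undifferentiated or Venus-negative cells are among the samples, so the level of these genes in the starting ES cells was not analysed here.

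When naive ES cells leave self-renewal, Otx2 and Pou5f1 (Oct4) engage enhancers of the primed state, and Pou3f1 (Oct6), Fgf5 and the de novo DNA methyltransferases are switched on. Zic2 and Zic5 encode zinc finger proteins of the epiblast and neural plate, and Zic2 is also known from the early presomitic mesoderm. Foxd3 encodes a forkhead factor that is needed to maintain the epiblast and, later, the neural crest. Otx2 is also a factor of the anterior visceral endoderm and of the forebrain and midbrain, and Pou3f1 one of the neural plate and of Schwann cells. These genes can therefore report on pluripotent, neural and endodermal cells alike.

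Of these genes, 3 had a lower signal on day 4, 1 was not separated between the days, and 1 was too dim to be tested. Zic2 and Zic5 fell to 63.2% and 62.9% of their day 3 signal and Pou3f1 to 57.5%. Otx2 stayed at 93.9% and did not pass the test. Foxd3 lay below the filter level of 13.5 signal units on all 6 arrays. Of the 4 tested members, 3 were called lower and 0 higher (limma, Benjamini-Hochberg adjusted p under 0.05), the same counts as at an unadjusted p under 0.05. Their median log2 change was -0.67, whereas 10.7% of the 12284 genes tested were called lower, 22.2% were called in either direction, and their median change was -0.01. Arrays of bulk RNA cannot tell fewer cells of a type from less RNA per cell. Replicates are labelled biological, with no statement on whether they came from separate cultures, so the p-values measure the spread between these samples.

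**Figure D1:**
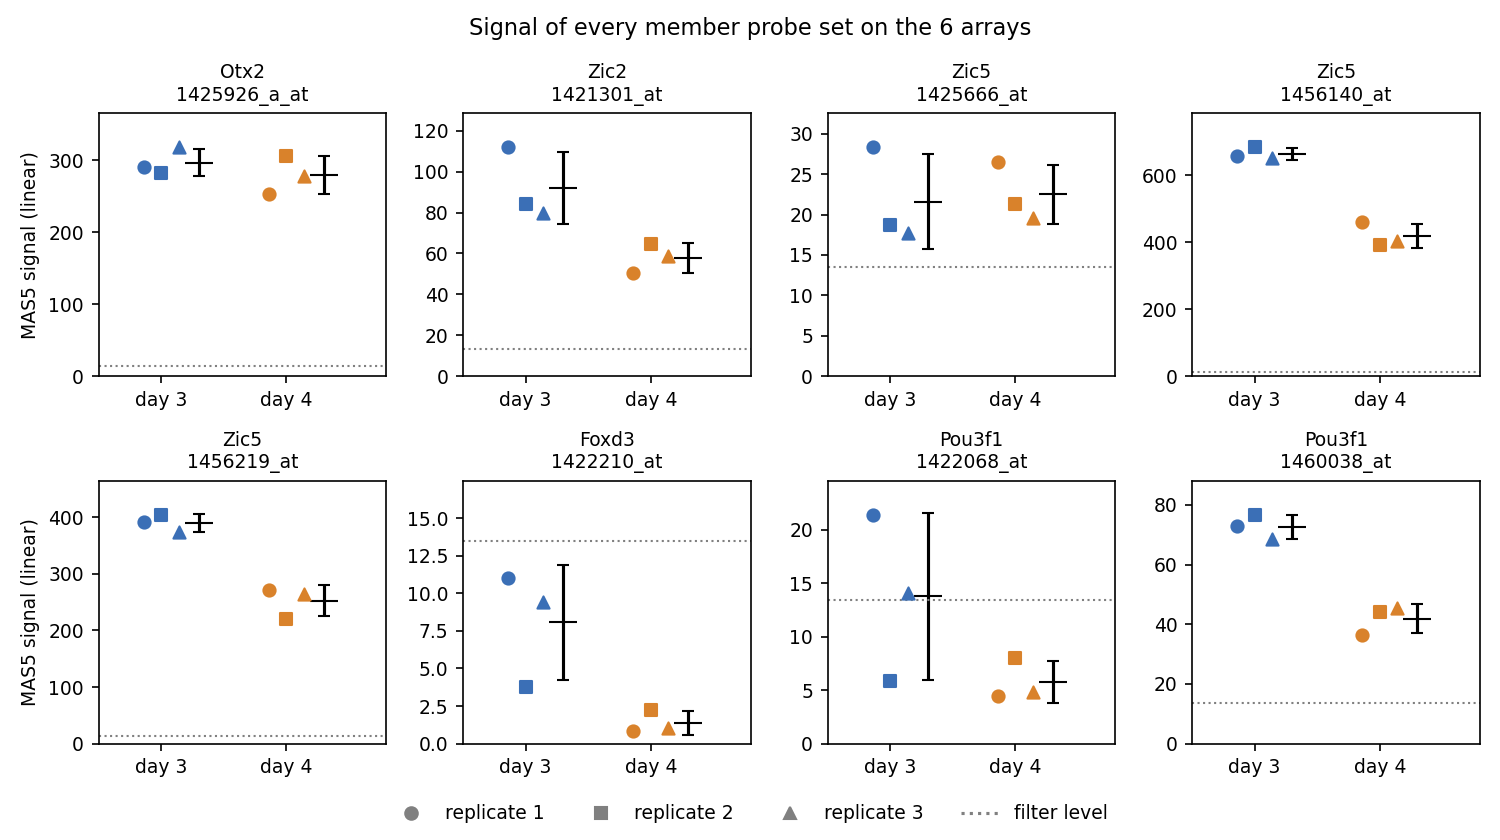
Deposited MAS5 signal (linear scale, starting at 0) of the 8 probe sets of the 5 genes on the 6 arrays. Symbols are single arrays by replicate number, bars are mean ± SD over 3 arrays, and the dotted line is the filter level of 13.5. The groups are apart for Zic2, for 2 of 3 Zic5 probe sets, for Pou3f1 1460038_at and for Foxd3, and they overlap for Otx2, Zic5 1425666_at and Pou3f1 1422068_at.

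Genes of the presomitic mesoderm were read on the same arrays, and all 8 on the list lay above the filter level. Of the 18193 named genes, 12284 lay above it, and there are no Venus-negative cells to compare with. These values therefore do not establish the identity of the sorted cells. Msgn1 itself fell by 1.17 ± 0.24 on the log2 scale (SE, as for all changes below; adjusted p = 0.00723), Mesp2 and Rspo3 rose, and 5, among them Tbx6, Dll1 and Dll3, did not pass. Among all genes tested, 10.7% were called lower and 11.5% higher. The sign of the Dll1 difference turned without day 4 replicate 1 (0.11 with it and -0.037 without). The summed signal of these 8 genes was 3031 to 3233 at day 3 and 4877 to 5117 at day 4, and most of that difference came from Rspo3 (means of 1275 and 2695). Of the arrays, day 4 replicate 1 had a ratio of 3′ to 5′ Gapdh signal of 14.04, against 2.43 to 3.19 on the other 5 arrays, and calls or signs that turn without it are named beside the genes. The trimmed mean signal of the arrays ran from 160 to 162.

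Otx2 encodes a homeodomain factor of the bicoid type and is the earliest of these factors known to act in the exit from naive pluripotency. Its only probe set, 1425926_a_at, read 290, 281 and 318 on the day 3 arrays and 253, 306 and 278 on the day 4 arrays. The highest day 4 array lay above 2 of the 3 day 3 arrays, so the groups overlapped. The means were 296 ± 18.9 and 279 ± 26.4 (SD over the 3 arrays of a day, here and for the signals that come later). The log2 change was -0.09 ± 0.11 (limma, adjusted p = 0.600), with a 95% interval of -0.34 to 0.16. That interval corresponds to a day 4 level of between 78.9% and 112% of day 3, which leaves out a fall as large as the estimates for Zic2, Zic5 and Pou3f1. In size, 19.3% of the genes tested changed as little as Otx2 or less. Leaving out single arrays moved the change between -0.16 and -0.02, with adjusted p of 0.430 to 0.891. The suffix of this probe set marks a design shared by several transcripts of the gene, and no other probe set of the gene was there to compare it with.

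The region before the Otx2 start is shown because Otx2 is the member whose signal was not separated between the days. The set of promoter windows used here, at RefSeq starts (GRCm38.p6), covers 3 of the 5 genes, Otx2, Zic5 and Foxd3. It has 4 start sites for Otx2 and 1 for each of the others, and no window for Zic2 or Pou3f1. The 250 bases before the outermost Otx2 start, chr14:48667645-48667894 on the minus strand, are printed 5′ to 3′ with every CpG in capitals.
Otx2: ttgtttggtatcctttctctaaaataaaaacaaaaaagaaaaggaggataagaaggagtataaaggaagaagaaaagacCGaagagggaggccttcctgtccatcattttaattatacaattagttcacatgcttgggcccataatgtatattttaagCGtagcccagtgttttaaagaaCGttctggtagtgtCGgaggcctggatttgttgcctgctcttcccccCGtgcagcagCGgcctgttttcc
This window held 6 CpGs and had a GC content of 42.0%. The median over the 32851 windows of the same length was also 6 CpGs. The windows of the Otx2 starts numbered 2, 3 and 4 from the outermost held more, with 8, 14 and 9 CpGs. Of all windows, 57.0%, 70.6% and 59.7% held fewer CpGs than these.

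Letters that these factor classes are known to bind were searched on both strands of the 250 bases before each start. They were TAATCC for OTX-type homeodomains, ATGCAAAT for POU factors, CAGCAGG for ZIC proteins and TGTTTA for forkhead proteins, none of which overlaps another where it was found. In the 6 windows of Otx2, Zic5 and Foxd3 there was 1 match, to the OTX-type letters, 206 to 211 bases before the Otx2 start site numbered 3 from the outermost, on the opposite strand. It is printed with its flanks, chr14:48665303-48665332 on the minus strand, with the matching letters in capitals.
Otx2 start 3: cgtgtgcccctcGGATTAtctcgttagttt
The OTX-type letters occurred in 6.25% of all windows, the POU letters in 1.601%, the ZIC letters in 8.44% and the forkhead letters in 12.03%. The arrays hold no measurement of binding, and a match in this window is a description of the letters.

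Zic2 and Zic5 encode members of the ZIC family of zinc finger proteins. In the RefSeq annotation they lie next to each other on chromosome 14, with a single noncoding gene, 2610035F20Rik, between them. Both fell by a similar amount. Zic2 (probe set 1421301_at) read 112, 84.4 and 79.6 at day 3 and 50.2, 64.4 and 58.6 at day 4. Every day 4 array lay below every day 3 array, and day 3 replicate 1 was the highest of all. Its mean went from 92.0 ± 17.4 to 57.7 ± 7.16, a log2 change of -0.66 ± 0.18 (limma, adjusted p = 0.0271). This call rested on single arrays: without day 3 replicate 1 the adjusted p was 0.0949 and the change -0.51, without day 3 replicate 2 it was 0.0605 and without day 4 replicate 3 it was 0.0572. With no filter on dim probe sets it was 0.0566. Without day 4 replicate 1 the change was -0.57 and the call held (adjusted p = 0.0398).

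Zic5 gave the firmest fall among the 5 genes. The brightest of its probe sets, 1456140_at, read 657, 683 and 651 at day 3 and 461, 392 and 403 at day 4. The lowest day 3 array stood well above the highest day 4 array. The mean went from 664 ± 17.1 to 419 ± 36.9, a log2 change of -0.67 ± 0.10 (limma, adjusted p = 0.00135), and the call held in all 6 leave-one-out fits, with changes of -0.74 to -0.62. Among the genes tested, 877 fell at least as far in fitted change, 547 of them with a call. Another probe set, 1456219_at, read 392, 404 and 373 at day 3 and 271, 221 and 265 at day 4, again without overlap. Tested on its own, it fell by 0.63 ± 0.12 on the log2 scale (limma over 27022 probe sets, adjusted p = 0.00644). Of the 8 member probe sets, 6 were tested on their own and 4 of these were called lower and 0 higher (the same counts at an unadjusted p under 0.05). Of all probe sets tested, 7.78% were called lower, and of all genes and probe sets tested, 20.6% and 17.6% had all day 4 arrays below all day 3 arrays.

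The third Zic5 probe set went its own way. On 1425666_at, a dim probe set, the signal was 28.3, 18.8 and 17.7 at day 3 and 26.6, 21.3 and 19.6 at day 4, so the days overlapped. Its log2 change was 0.08 ± 0.31 (limma over probe sets, adjusted p = 0.887), and its sign turned without day 3 replicate 2, day 3 replicate 3 or day 4 replicate 1. This probe set was designed on another source sequence (AB042155) than the bright ones (BM199323 and AV322605), and the part of the transcript that each one reads is not given in the sources used here. With the mean over all 3 probe sets, the change of Zic5 was -0.41 and the call was lost (adjusted p = 0.0590).

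The 250 bases before the Zic5 start are shown as those of the member with the firmest fall, chr14:122465659-122465908 on the minus strand, with every CpG in capitals.
Zic5: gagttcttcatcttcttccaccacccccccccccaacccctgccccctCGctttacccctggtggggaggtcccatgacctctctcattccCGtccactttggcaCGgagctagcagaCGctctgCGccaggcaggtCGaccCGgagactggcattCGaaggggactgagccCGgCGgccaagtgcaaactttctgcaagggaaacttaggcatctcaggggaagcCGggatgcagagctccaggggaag
It held 11 CpGs and a GC content of 62.4%, and 64.4% of all windows held fewer CpGs.

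The noncoding neighbour 2610035F20Rik, chosen after its values were seen, was dim, with 10.2, 7.85 and 18.8 at day 3 and 12.8, 20.01 and 10.3 at day 4. Its arrays overlapped, and it lay under the filter. Pcca, the next protein-coding gene on the Zic2 side and an enzyme subunit of propionate breakdown, did not pass on its brighter probe set (change 0.26, limma over probe sets, adjusted p = 0.217).

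Pou3f1 encodes a POU factor that is induced in the primed epiblast and again in the neural plate. Its brighter probe set, 1460038_at, read 72.8, 76.7 and 68.5 at day 3 and 36.3, 44.0 and 45.4 at day 4. The days did not overlap, and within each day the arrays were close. The mean went from 72.7 ± 4.08 to 41.9 ± 4.92, a log2 change of -0.80 ± 0.17 (limma, adjusted p = 0.00910), which held in each fit that left out an array (adjusted p of 0.0114 to 0.0437). The other probe set, 1422068_at, read 21.4, 5.84 and 14.1 at day 3 and 4.48, 8.02 and 4.81 at day 4. Only 2 of its 6 values lay above the filter level, and the days overlapped. Its mean log2 signal over the arrays lay under the filter, so it was not tested. With the mean of both probe sets the change was -0.96 and the call was lost (adjusted p = 0.0741).

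Foxd3 encodes a forkhead repressor of the epiblast. Its probe set, 1422210_at, read 11.01, 3.74 and 9.45 at day 3 and 0.835, 2.27 and 1.03 at day 4. All 6 values were below the filter level, and every day 4 array lay below every day 3 array, as on 13.3% of all probe sets when no filter is applied. Both days lie under that level, so the size of a difference between them was not measured. The exact permutation test (2-sided) gave p = 0.1, the lowest that 2 groups of 3 allow, and could not pass 0.05. When all 18193 genes were tested without a filter, the adjusted p was 0.0491 (limma), where 6.30% of genes were called lower, and when all probe sets were tested without a filter it was 0.0726. Neither is read as a change of Foxd3. At this signal a presence of Foxd3 transcript was not measured apart from background on either day.

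The 250 bases before the Foxd3 start, chr4:99656049-99656298 on the plus strand, are shown as the most CpG-rich of the windows, with every CpG in capitals.
Foxd3: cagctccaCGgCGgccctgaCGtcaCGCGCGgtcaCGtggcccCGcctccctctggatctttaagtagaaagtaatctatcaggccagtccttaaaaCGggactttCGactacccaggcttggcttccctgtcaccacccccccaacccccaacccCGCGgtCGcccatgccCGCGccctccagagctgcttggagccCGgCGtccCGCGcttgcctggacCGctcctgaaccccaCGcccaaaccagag
It held 21 CpGs and a GC content of 65.6%, and 83.7% of all windows held fewer CpGs.

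The members were then set against each other within each array, as the difference of their log2 signals on their brightest probe sets, for all 10 pairs. Otx2 minus Zic2 rose by 0.57 ± 0.18 between the days, Otx2 minus Zic5 by 0.58 ± 0.16 and Otx2 minus Pou3f1 by 0.71 ± 0.12. In each of these 3 pairs all day 4 arrays lay above all day 3 arrays, with an exact 2-sided permutation p = 0.1 and 0.2 adjusted over the 10 pairs, so none could pass a threshold of 0.05. Zic2 minus Zic5 differed between the days by 0.005 ± 0.24, Zic2 minus Pou3f1 by 0.14 ± 0.16 and Zic5 minus Pou3f1 by 0.13 ± 0.17. These 3 pairs overlapped between the days (exact permutation p = 1, 0.5 and 1), and their standard errors leave room for differences of their own size. For the 4 pairs with Foxd3 no difference is given, because its values lie below the filter level.

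**Figure D2:**
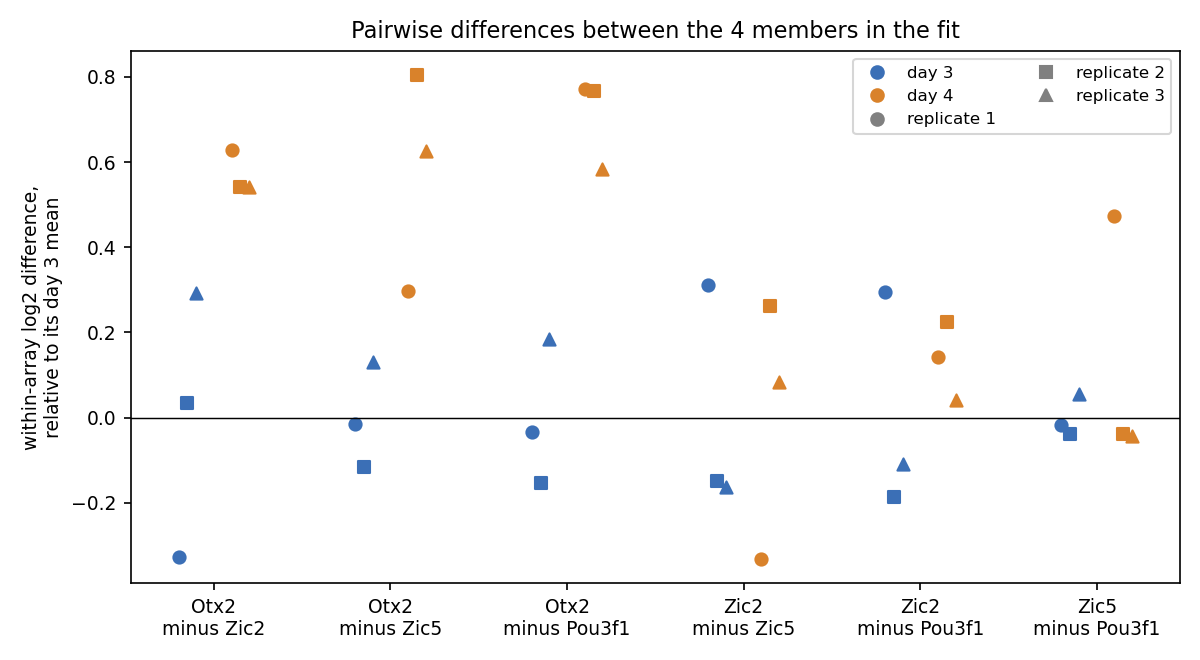
Difference of log2 signal between 2 members on the same array, relative to its day 3 mean, for the 6 pairs of the 4 tested members. Symbols are single arrays, by day (colour) and replicate number (shape). The day 4 arrays lie above the day 3 arrays in the 3 pairs with Otx2 and overlap with them in the other 3.

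Among the family relatives of these genes, Otx1 passed the test, and it rose. Of 10 relatives on the array, 6 were tested, and 1 was higher and 0 were lower at day 4 (limma, adjusted p under 0.05). The share called higher by adjusted p over all genes tested was 11.5%. At an unadjusted p under 0.05 the counts were 3 higher and 0 lower, and no share over all genes is given at that threshold. Otx1 is the paralogue of Otx2 and a factor of the forebrain and of early sensory organs. It read 36.4, 39.3 and 34.7 at day 3 and 88.8, 86.4 and 88.5 at day 4. The 3 arrays of each day were close and far from those of the other day. The mean went from 36.8 ± 2.31 to 87.9 ± 1.28, and the log2 change was 1.26 ± 0.15 (limma, adjusted p = 0.000606). Within arrays, Otx2 minus Otx1 fell by 1.35 on the log2 scale without overlap (exact permutation p = 0.1, a pair chosen after its values were seen).

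The other relatives were dim. Pou3f3, a POU factor of the nervous system and kidney, was at 16.2 ± 4.03 and 29.4 ± 7.32 (limma, adjusted p = 0.0913), and it passed without day 4 replicate 1 (adjusted p = 0.0395) and with array quality weights (0.00956). Foxd1, a factor of kidney stroma, was at 10.5 ± 3.38 and 20.3 ± 6.03 (adjusted p = 0.137). Its day 3 mean lay under the filter level, and it entered the test through day 4, the group where it is high. Foxd1 is among the relatives counted as higher at an unadjusted p under 0.05. Foxd2 was at 22.7 ± 1.25 and 14.1 ± 2.90 (adjusted p = 0.142), and it passed as lower with eBayes without trend (0.0322). Its other probe set, 1450289_at, lay under the filter and went the other way, at 10.6 ± 12.7 and 16.4 ± 5.94, with overlapping days. Zic1, a ZIC gene of the neural tube and somite, was at 18.3 ± 4.14 and 16.3 ± 3.99, and Crx, a photoreceptor factor, at 19.4 ± 1.40 and 19.9 ± 0.676, and neither passed (adjusted p = 0.761 and 0.937). Without day 4 replicate 1 the log2 difference of Zic1 turned from -0.18 to 0.042. Zic4, Pou3f2, Pou3f4 and Foxd4 lay under the filter.

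**Figure D3:**
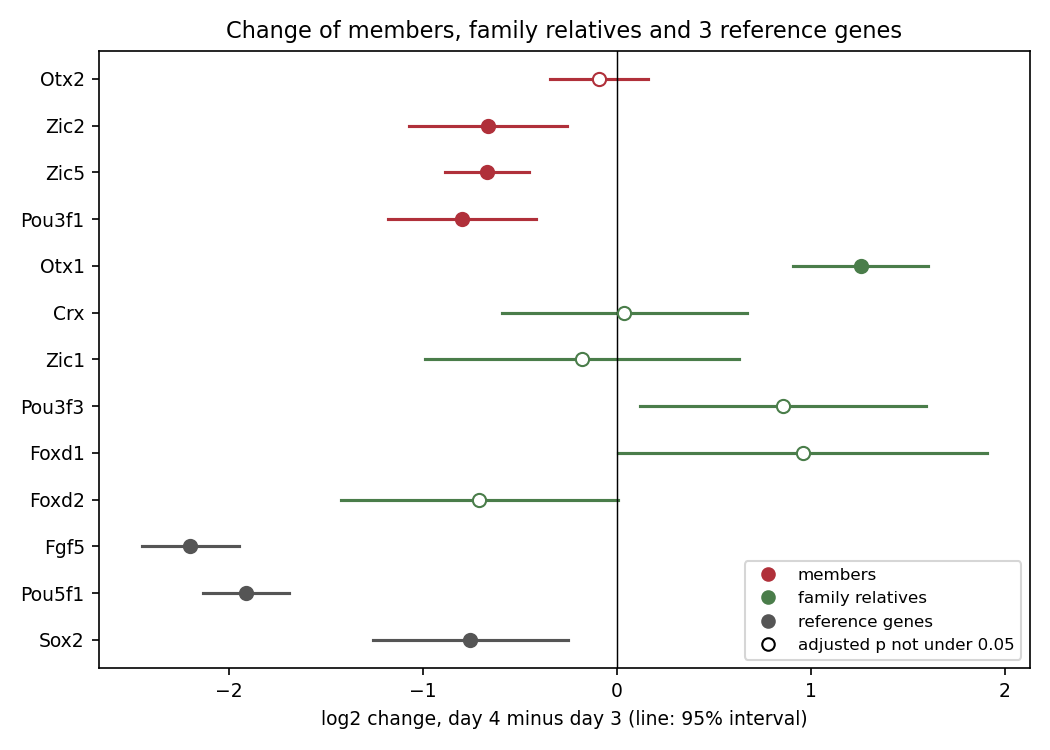
Log2 change from day 3 to day 4 with its 95% interval (limma) for the 4 tested members, the 6 tested relatives and 3 reference genes, n = 3 arrays per day. Filled points passed the threshold of 0.05 on the adjusted p. Zic2, Zic5 and Pou3f1 lie between -0.80 and -0.66, Otx2 near 0 and Otx1 at 1.26.

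Most other genes of the primed epiblast fell as well. Of 20 on a list that leaves out the members, all were tested, 12 were lower and 2 higher at day 4, with a median change of -0.69. Of all genes tested, 10.7% were called lower and 11.5% higher, with the median of -0.01 given above. Those with the smallest p were Lefty2, an inhibitor of Nodal signalling, with a log2 change of -1.75 ± 0.08, Fgf5, a growth factor and the standard marker of the state, with -2.20 ± 0.11, Pou5f1 with -1.91 ± 0.10 and the kinase gene Pim2 with -2.32 ± 0.14 (limma, adjusted p of 3.84e-06 to 1.3e-05). Sox2, a partner of Pou5f1, fell by 0.75 ± 0.22 (adjusted p = 0.0389), and 0.05 was missed in 4 leave-one-out fits (each but day 3 replicate 1 and day 4 replicate 3, adjusted p up to 0.129), without the filter (0.0639), with probe sets averaged (0.0581) and with eBayes without trend (0.0927). The 2 that rose, given with Dnmt3b after their values were seen, were Dnmt3a, a de novo DNA methyltransferase, by 0.81 ± 0.15, and Sox11, a SoxC factor, by 0.74 ± 0.11 (adjusted p = 0.00469 and 0.00172), while the related methyltransferase gene Dnmt3b fell by 0.45 ± 0.08 (adjusted p = 0.00473). The falls of Fgf5 and Pou5f1 were larger than those of Zic2, Zic5 and Pou3f1, a difference that was not tested.

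**Figure D4:**
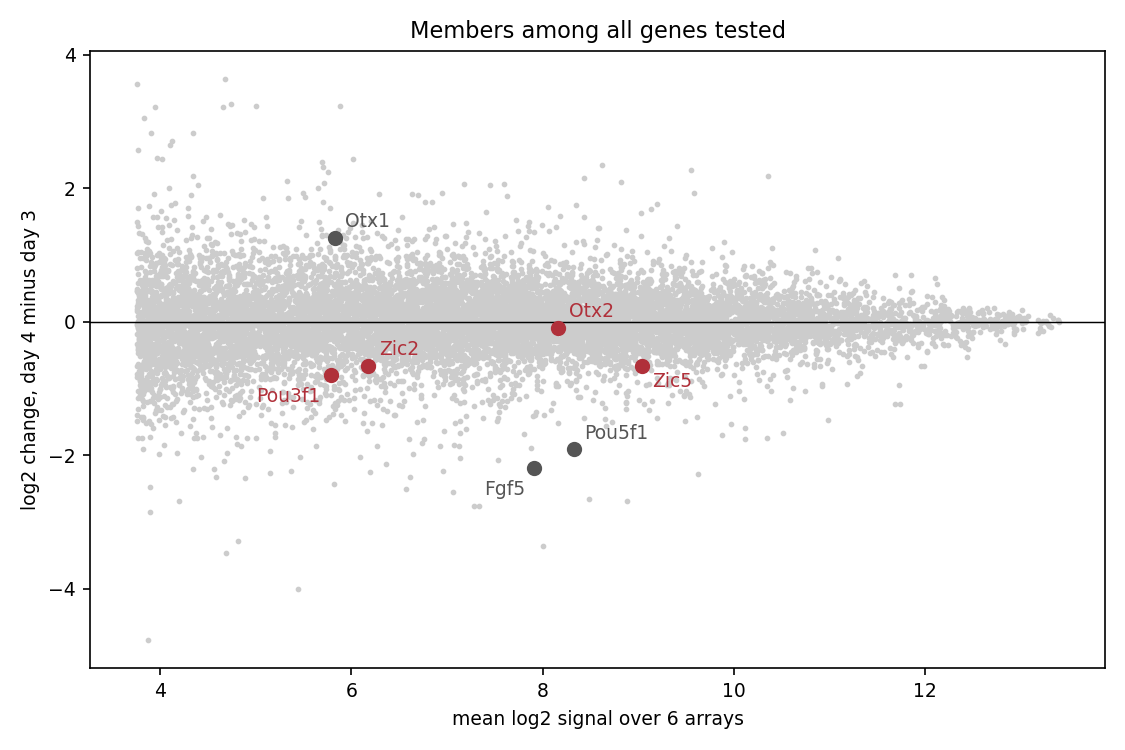
Log2 change from day 3 to day 4 against mean log2 signal over 6 arrays for the 12284 genes tested (grey). The 4 tested members are red, and Otx1, Pou5f1 and Fgf5 are dark grey. Zic2, Zic5 and Pou3f1 lie below 0 within the spread of the other genes, and Fgf5 and Pou5f1 lie lower.

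Markers of other cells in which these genes are known to be active were read on the same arrays. Of 11 forebrain and anterior neural plate genes, 6 lay under the filter (Lhx5, Rax, Fezf2, Sox1, Six6 and Barhl2), and of the 5 tested 0 passed in either direction with limma. The share over all genes tested was 22.2%. At an unadjusted p under 0.05 the count on the list was 1 lower and 0 higher. That gene was Pax6, at 27.4 ± 8.05 and 14.8 ± 3.35 (limma, adjusted p = 0.112). Hesx1, Emx2 and Dmbx1 did not pass (adjusted p of 0.298 to 0.487), and the sign of the Dmbx1 difference turned without day 4 replicate 1. The summed signal of all 11 genes, with the 6 dim ones included, was 119 to 159 at day 3 and 101 to 143 at day 4. Sox1, the defining gene of the neural plate, read 2.89 ± 0.839 and 1.70 ± 0.868.

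Of 8 anterior endoderm genes, all tested, 3 were lower and 0 higher at day 4 (limma, and 4 and 1 at an unadjusted p under 0.05). By adjusted p, 10.7% of all genes tested were called lower and 11.5% higher. Gsc, an organizer homeobox gene, fell by 1.67 ± 0.15, Foxa2, a forkhead factor of endoderm and node, by 1.02 ± 0.21 and Sox17, an endoderm factor, by 1.93 ± 0.41 (limma, adjusted p = 0.00012, 0.00747 and 0.00956). Without day 3 replicate 1 the call for Sox17 was lost (adjusted p = 0.0510). A dimmer Sox17 probe set, 1421657_a_at, changed by -0.43 and did not pass (limma over probe sets, adjusted p = 0.400). Cxcr4, a chemokine receptor, did not pass (change 0.54 ± 0.22, adjusted p = 0.106) but passed without day 4 replicate 1, with the replicate number as a block and with array quality weights (adjusted p = 0.00428, 0.0427 and 0.0042). Hhex and Cer1, of the anterior endoderm, did not pass, at 109 ± 20.2 and 98.6 ± 13.3, and at 25.3 ± 8.65 and 32.3 ± 15.5, and the sign of the Cer1 difference turned without day 4 replicate 1. The summed signal of the list was 2043 to 2269 at day 3 and 1746 to 1979 at day 4, most of it from Lhx1, a LIM homeobox gene that is also active in mesoderm and did not pass (log2 difference -0.019, and 0.051 without day 4 replicate 1). The part of these cells in the fall of Zic2, Zic5 and Pou3f1 was not tested.

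Of 8 neural crest genes, 6 were tested, 2 were lower and 0 higher (limma, and 3 and 0 at an unadjusted p under 0.05), and Tfap2b and Pax7 lay under the filter. The shares called by adjusted p over all genes tested were 10.7% lower and 11.5% higher. Snai2, a repressor of epithelial genes, fell by 1.48 ± 0.26 and Erbb3, a neuregulin receptor, by 0.43 ± 0.13 (limma, adjusted p = 0.00352 and 0.0404). The call for Erbb3 was lost without any one of the arrays except day 4 replicate 1, and also without the filter (adjusted p = 0.0693) and with the replicate number as a block (0.0592), and with the mean over probe sets neither passed (adjusted p = 0.111 and 0.202). Tfap2a, an AP-2 factor of the crest and surface ectoderm, did not pass (change -0.72, adjusted p = 0.0538) but passed in 5 of the alternatives (adjusted p of 0.0166 to 0.0461). Its dimmer probe sets, 1421995_at and 1426048_s_at, did not fall, with changes of 0.47 and 0.057 (limma over probe sets, adjusted p = 0.505 and 0.936). Ngfr, a neurotrophin receptor, did not pass (adjusted p = 0.142). Sox10, a defining gene of the crest, was at 26.7 ± 12.6 and 19.8 ± 7.83 and did not pass (adjusted p = 0.608). The summed signal of this list was 344 to 407 at day 3 and 252 to 259 at day 4.

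Naive pluripotency genes split, with 3 lower and 2 higher of 10 tested, where 10.7% of all genes tested were called lower and 11.5% higher. Nanog fell by 1.63 ± 0.21, Fbxo15 by 1.58 ± 0.23 and Klf2 by 1.04 ± 0.26, while Prdm14, at 10.3 ± 0.194 and 38.6 ± 3.88, and the T-box gene Tbx3, at 199 ± 11.6 and 301 ± 13.7, rose (limma, adjusted p = 0.000739, 0.00135, 0.0197, 0.00160 and 0.00352). The call for Klf2, named because it completes the count, was lost in 4 leave-one-out fits (each but day 3 replicate 1 and day 4 replicate 1, adjusted p up to 0.0777) and without the filter (adjusted p = 0.0501). The call for Tbx3 was lost with the mean over its probe sets (adjusted p = 0.226). Prdm14 lay under the filter level on the 3 day 3 arrays and entered the test through day 4 alone, the group where it is high. Tfcp2l1 and Nr0b1 lay under the filter. Their summed signal over the list was 1070 to 1241 at day 3 and 957 to 1028 at day 4.

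For each tested member, the 3 genes with the most similar log2 signal over the 6 arrays were listed by Pearson correlation, out of 10378 candidates. With so many candidates and 6 arrays that fall into 2 groups, high values arise readily, and they are a description. For Zic5 they were Bysl, a factor of ribosome assembly, Dsg2, a desmosomal cadherin, and Cdh11, a mesenchymal cadherin (r = 0.997 for each), which fell by 0.60, 0.67 and 0.88. For Pou3f1 they were Wdyhv1, Mphosph10 and Sirt1, a protein deacetylase (r = 0.997 to 0.999), and for Zic2 Mrm3, Fhl2 and Kat2b, a histone acetyltransferase (r = 0.992 to 0.998). For Otx2 they were Clasrp, Il6ra, a receptor subunit for interleukin-6, and Cwf19l1 (r = 0.992 to 0.999), and these did not pass the test between days (limma, adjusted p of 0.367 to 0.745). Among the genes listed for Pou3f1 and Zic2, Wdyhv1, Mrm3 and Kat2b did not pass either (limma, adjusted p = 0.0691, 0.104 and 0.156). Mphosph10, Sirt1 and Fhl2 were called lower (limma, adjusted p = 0.00198, 0.0143 and 0.0336).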

How the data were processed

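Total RNA of sorted cells was amplified in 2 cycles into biotin-labelled cRNA and hybridised to 1 Affymetrix array per sample, per the labels' protocols. The deposited values are linear signal intensities of 45101 probe sets, made with MAS5 per the submitters' processing notes; no version, scaling target or detection call came with them. Dim MAS5 values scatter widely on a log scale, and double amplification weighs signal toward the 3′ end of a transcript.

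The deposited intensities were taken to log2 without further scaling and analysed in R 4.3.3 with limma 3.58.1. Symbols came from the annotation table of the array, and all 5 members matched RefSeq by Entrez identifier. Each gene was represented by the brightest of its probe sets by mean log2 signal. Genes above the 40th percentile of mean log2 signal (a signal of 13.5) were tested with day as the only term, eBayes with trend, 2-sided, Benjamini-Hochberg adjustment over 12284 genes and a threshold of 0.05. Every probe set above the filter was also tested on its own, which is the only test given for probe sets that do not represent their gene. Counts at an unadjusted p under 0.05 are given without a share over all genes and are not compared with one. The model was tested on simulated arrays.

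The members, the 8 gene lists and the tests were chosen with earlier results of these data known. Named genes were the members, their family relatives, up to 4 members of each other list with the smallest p, the 3 genes most correlated with each tested member, and Pou5f1, Sox2 and Fgf5. Tbx6, Dll1, Hhex, Cer1, Lhx1, Sox10, Sox1, Klf2, Dnmt3a, Dnmt3b, Sox11 and 2610035F20Rik were named outside this rule, after their values were seen. Pcca was also outside it, named as a neighbour of Zic2. Motifs were searched in the 250 bases before RefSeq start sites (GRCm38.p6); no build is named for the array. Alternatives covered the log2 offset, normalization, filter, choice of probe sets, variance model, array weights, a replicate block and leaving out each array.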

Additional observations from a re-analysis of the deposited data

How the results depend on the processing

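Zic2, Zic5, Pou3f1 and Otx2 kept their direction under every alternative run, and Otx2 never passed. Averaging over probe sets ended the calls of Zic5 (-0.41, adjusted p = 0.0590) and Pou3f1 (-0.96, adjusted p = 0.0741), and gave 1796 called genes in place of 2729. The average takes in their dim probe sets, and the cause of the lost calls was not tested. Without a filter Zic2 was at -0.66 with an adjusted p of 0.0566, and the planned fit of Foxd3 gave -2.55 with an adjusted p of 0.0491 (limma), or -1.10 with an offset of 4.14 before log2. These are differences of values below the filter level and measure no change of Foxd3. Array quality weights gave 4312 called genes and 7758 called probe sets, in place of 4794; the cause was not tested. Leaving out single arrays gave 1582 (without day 3 replicate 3) to 3530 called genes (without day 4 replicate 1), and 2278 to 6306 called probe sets (the same arrays). It moved Zic2 between -0.76 and -0.51, Zic5 between -0.74 and -0.62, Pou3f1 between -0.86 and -0.70 and the fitted value of Foxd3, of no measured size, between -3.03 and -2.25. Differences that did not pass changed sign when single arrays were left out: without day 4 replicate 1 for Zic1 (range over the 6 fits -0.35 to 0.042), Dll1 (-0.037 to 0.21), Cer1 (-0.061 to 0.57) and Dmbx1 (-1.06 to 0.13), without day 4 replicate 3 for Tbx6 (-0.30 to 0.026), without day 3 replicate 3 for Crx (-0.0082 to 0.095), and without replicate 1 of either day for Lhx1 (-0.062 to 0.051). Lhx1 was also at 0.0042 with quantile normalization and 0.049 with array quality weights. Zic5 1425666_at ran from -0.048 to 0.29.

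Tested as a probe set over all probe sets, Zic2 passed (adjusted p = 0.0365) and lost the call in 5 of the 6 leave-one-out fits, and Pou3f1 1460038_at lost it without day 3 replicate 2 (adjusted p = 0.0536). The Zic2 probe set also lost its call with the replicate block (limma, adjusted p = 0.0583), without the filter (0.0647) and with eBayes without trend (0.0600). Same-numbered samples of the days showed little shared deviation from their day means (correlations of 0.0633, 0.0086 and -0.0024). With means of 3 arrays these values cannot decide whether the numbers pair the samples, and the labels do not say. With the replicate number as a block 2885 genes were called, and Zic2, Zic5 and Pou3f1 kept their calls in the fit over genes (limma, adjusted p = 0.0434, 0.00287 and 0.0171). No probe set of Otx2 is left when suffixed probe sets are left out. The 3 arrays per day limit the precision, and values under the filter level have no reliable order.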
